A study of Homo sapiens with 28 samples.

Results

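Transcripts and guide counts of 10 heat shock genes were described in U2OS cells, a human osteosarcoma line. The genes were taken by name: HSF1, HSPA1A, HSPA1B, HSPA8, HSPH1, DNAJB1, HSP90AA1, HSPB1, HSPB8 and BAG3. They made up 10 of the 25807 gene symbols of the RNA table and 10 of the 19050 gene names of the guide table, where 57 of 109367 guides carried their names. HSF1, HSPH1 and DNAJB1 had 5 guides each, and the other 7 genes had 6 each.

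HSF1 is the main transcription factor of the heat shock response. In unstressed cells it is kept inactive by chaperones, and when damaged proteins occupy those chaperones it trimerises and binds heat shock elements in the promoters of chaperone genes. The chaperones it induces bind unfolded proteins and refold them or pass them on for degradation, and the HSP70 proteins hold HSF1 back again, which closes a feedback loop.

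RNA was measured in p53 WT U2OS cells in every group, so that only the origin of the medium differed in p53 genotype. Recipient cells were kept for 8 h in medium conditioned by p53 KO U2OS cells given etoposide at 31.6 µM, by p53 KO cells without it, by WT cells given the same dose of etoposide, or by WT cells without it, and a further group was collected at the start (T0). The media without etoposide are called DMSO media here, after the sample titles. Each of the 5 groups had 2 libraries, A and B. Etoposide is a topoisomerase II poison that leaves DNA breaks, and the labels do not say whether it was removed from the medium before transfer. The screen used a genome-wide pool of CRISPR guides in p53 KO and in p53 WT U2OS cells, each under 5 µM etoposide for 96 h, under DMSO for 96 h, and at T0, with 3 libraries (A, B and C) in each of the 6 groups. The 96 h screen controls are titled Untreated, whereas their treatment protocol gives DMSO, and they are called DMSO here. The labels do not say whether the p53 KO line is 1 clone, nor that the libraries of 1 group are from different cultures. P-values therefore measure the spread between these libraries, which may be technical.

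RNA libraries held 16.8 to 20.3 M counts and screen libraries 30.4 to 48.2 M counts, with a median of 246 to 395 counts per guide. Counts of the p53 KO DMSO-medium pair differed more than those of the other RNA pairs (chi-square over degrees of freedom of 12.8, against 1.9 to 5.09), and which of its libraries stands apart cannot be told from a pair, so values without each are given beside the members' calls that rest on it. Of the bone and mesenchymal markers, COL1A1 lay at 7030 to 10100 CPM (counts per M counts of the library), VIM at 2010 to 2550 CPM and RUNX2 at 10.5 to 55.8 CPM, while the osteoblast markers SP7, BGLAP and IBSP stayed at or under 0.308 CPM. COL1A2, of the same list as COL1A1, lay at only 0.411 to 1.27 CPM. The epithelial keratins KRT8 and KRT18 lay at 738 to 997 and 420 to 775 CPM, while EPCAM, CDH1 and KRT19 stayed at or under 7.04 CPM. Of the blood markers, PTPRC stayed at or under 1.4 CPM, and CD68 lay at 10.7 to 21.3 CPM. The p53 KO label could not be checked in the RNA, whose cells were all p53 WT.

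Per kilobase of transcript, the 10 genes spanned a wide range of levels. At T0 the small heat shock protein gene HSPB1 was the highest of them, at 2048 ± 25 CPM per kb (mean ± SD, n = 2 here and for the other levels). HSPA8, the constitutive cytosolic HSP70, followed at 721.6 ± 4.3, HSF1 at 166.8 ± 0.83 and HSP90AA1, the stress-inducible cytosolic HSP90, at 164.3 ± 0.77 CPM per kb. The inducible HSP70 genes HSPA1A and HSPA1B were at the low end, at 19.49 ± 0.99 and 8.27 ± 0.27 CPM per kb. Of neighbours in the order at T0, DNAJB1 (73.91 ± 0.71) and HSPB8 (73.68 ± 3.2 CPM per kb) did not differ beyond their spread. In the p53 KO DMSO medium HSPA1A reached 69.1 ± 1.2 CPM per kb and HSPB8 lay at 37.7 ± 6.1, so that their order was turned against T0.

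Heat shock elements are arrays of GAA blocks in alternating orientation, and promoters of the members were searched for them. RefSeq (GRCh38.p14) gave windows for 9 of the 10 members, 12 windows in all; HSF1 was not among them. The search, in the 250 bases before each start and on either strand, was for a facing pair of blocks, GAANNTTC or TTCNNGAA, and for 3 alternating blocks, GAANNTTCNNGAA or TTCNNGAANNTTC, each of which holds 2 overlapping pairs. A pair was found for 7 of the 9 members, with none for HSPH1 or BAG3. By window, 7 of the 12 held a pair, as did 11.6% of all 35116 RefSeq windows. The 3-block run was found for HSPA8 and HSP90AA1, in 2 of the 12 windows, and in 0.441% of all windows. HSPH1 and BAG3, which had no match, rose against T0 in every medium. Whether members that changed together share heat shock elements was not tested. Sequences are given for 5 of the 7 windows with a pair, 5′ to 3′ with the matches in capitals. All 5 thus hold a match, and they do not represent the members without one. Where a gene had several starts, the window is the one that holds a match.
HSPA1A, chr6:31815293-31815542, plus strand: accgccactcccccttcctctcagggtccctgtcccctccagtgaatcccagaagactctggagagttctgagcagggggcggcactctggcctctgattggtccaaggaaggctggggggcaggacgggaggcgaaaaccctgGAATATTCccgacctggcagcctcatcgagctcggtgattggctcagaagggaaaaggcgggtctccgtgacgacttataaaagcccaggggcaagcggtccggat
HSPA8, chr11:123062137-123062386, minus strand: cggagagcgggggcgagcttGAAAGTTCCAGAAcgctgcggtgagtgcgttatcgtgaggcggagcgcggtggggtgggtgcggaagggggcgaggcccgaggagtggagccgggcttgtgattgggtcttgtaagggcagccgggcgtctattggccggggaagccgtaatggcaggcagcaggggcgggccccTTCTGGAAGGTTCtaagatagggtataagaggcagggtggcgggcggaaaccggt
HSP90AA1, chr14:102087045-102087294, minus strand: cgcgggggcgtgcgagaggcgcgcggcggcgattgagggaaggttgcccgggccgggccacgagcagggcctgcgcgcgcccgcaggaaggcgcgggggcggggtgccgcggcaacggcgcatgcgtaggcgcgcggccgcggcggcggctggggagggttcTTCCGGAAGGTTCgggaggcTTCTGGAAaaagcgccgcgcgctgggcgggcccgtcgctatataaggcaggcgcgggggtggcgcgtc
DNAJB1, chr19:14518398-14518647, minus strand: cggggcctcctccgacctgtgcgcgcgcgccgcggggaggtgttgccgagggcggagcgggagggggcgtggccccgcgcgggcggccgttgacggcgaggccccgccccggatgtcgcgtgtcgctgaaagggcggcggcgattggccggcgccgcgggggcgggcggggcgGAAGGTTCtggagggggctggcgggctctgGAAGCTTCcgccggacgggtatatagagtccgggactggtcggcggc
HSPB8, chr12:119178681-119178930, plus strand: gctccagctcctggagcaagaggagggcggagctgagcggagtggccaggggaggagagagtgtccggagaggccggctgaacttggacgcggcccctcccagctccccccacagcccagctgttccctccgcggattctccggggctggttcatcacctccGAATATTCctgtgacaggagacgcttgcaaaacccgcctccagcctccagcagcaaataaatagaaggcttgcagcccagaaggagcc
In HSPA1A the pair began 106 bases before the start, in HSPB8 88 bases, and in DNAJB1 77 and 47 bases. The HSPA8 window held a 3-block run at each end, the nearer pair 50 bases from the start, and the HSP90AA1 window held 1 such run and a separate pair 68 bases from the start. The HSPA1A and HSPA1B windows were 94.4% identical (235 of 249 aligned bases). A match is a string of letters and not a measured binding site.

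**Figure D1:**
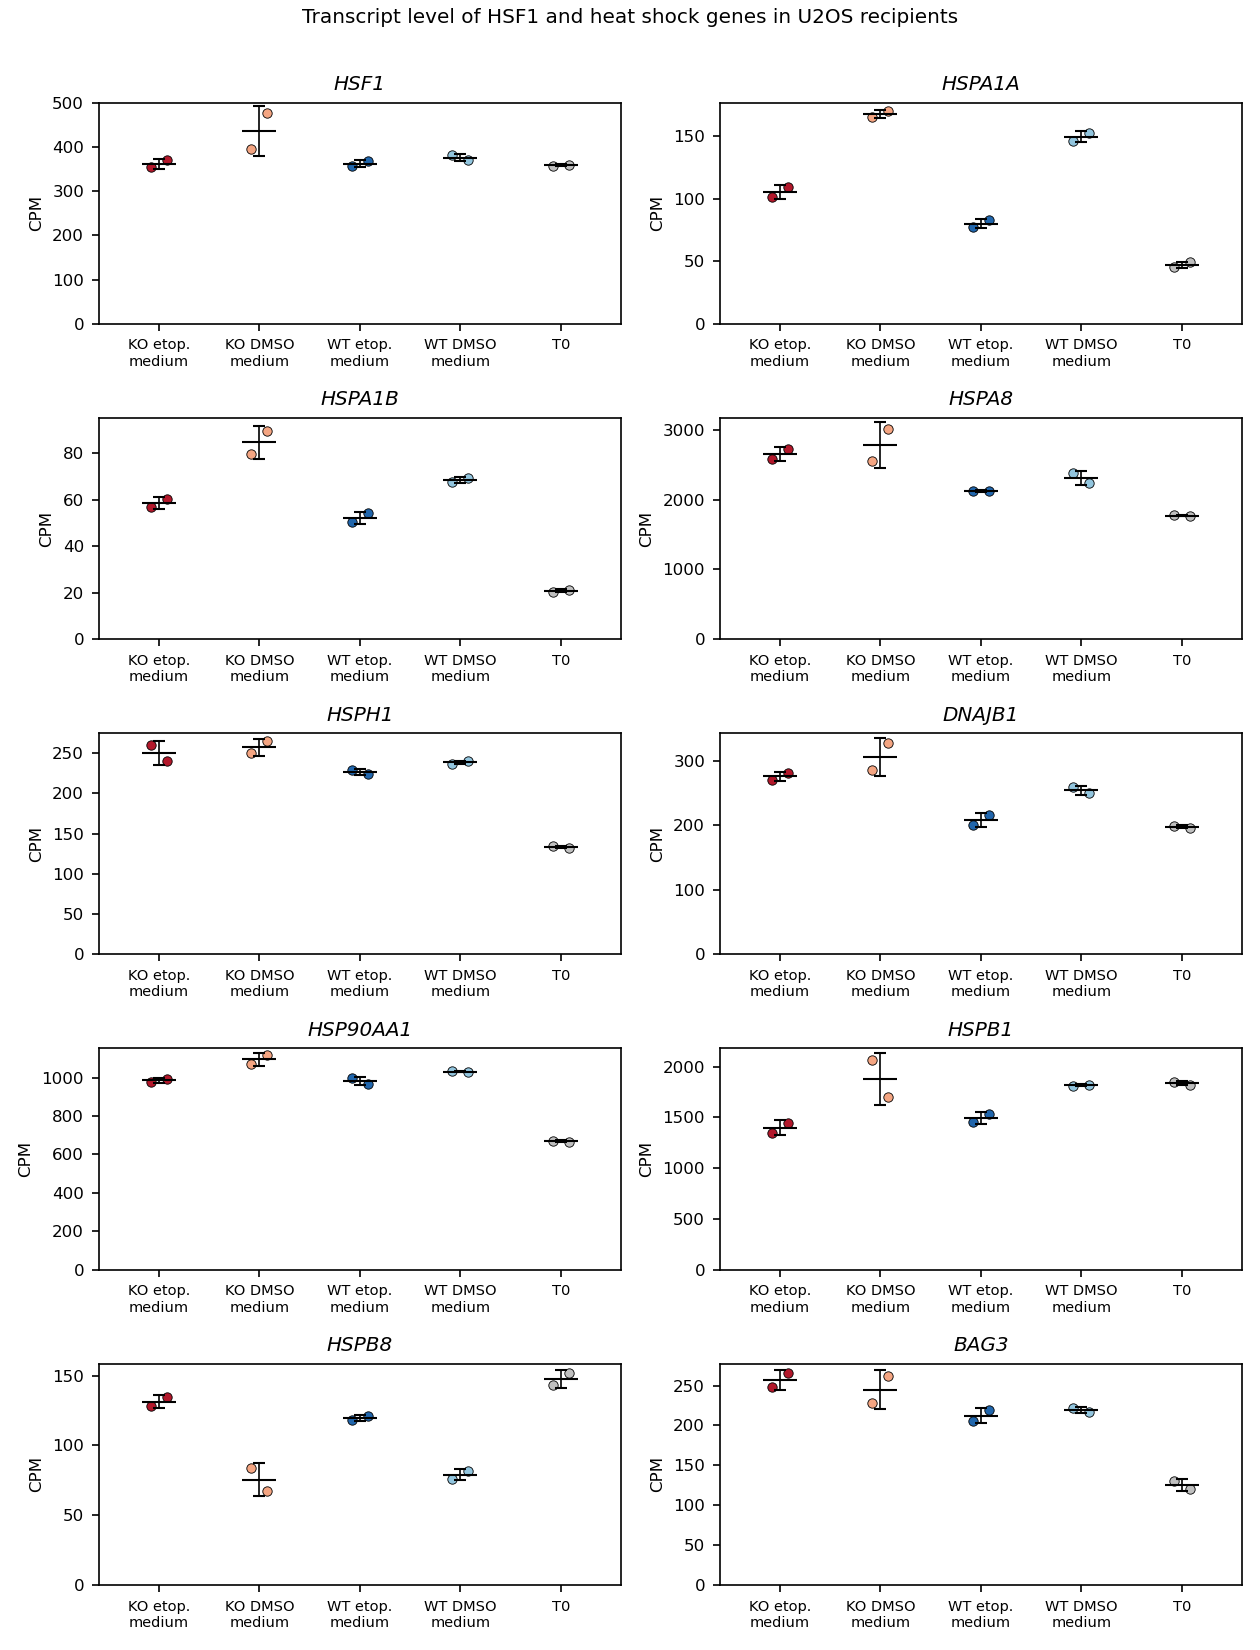
CPM of each of the 10 genes (vertical axes, from 0) in the 5 RNA groups, with points for the 2 libraries of a group and bars for mean ± SD. HSPA1A and HSPA1B are lowest at T0 and highest in the DMSO media, and HSPB8 has the opposite order.

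All 4 conditioned media were set against T0, which asks what 8 h in such a medium did to the recipients. Cells in medium had more HSPA1A and HSPA1B RNA than T0 cells in every case, and more of the co-chaperone and HSP110 genes BAG3 and HSPH1, while HSPB8 lay below T0. In the p53 KO DMSO medium 8 members were higher and 1 lower (36.8% of all 15391 genes tested were called, 18.1% higher and 18.7% lower), and in the WT DMSO medium 7 were higher and 1 lower (35.4% called, 17.8% higher and 17.6% lower). In the p53 KO etoposide medium 7 were higher and 1 lower (46.6% called, 22.8% higher and 23.8% lower), and in the WT etoposide medium 6 were higher and 2 lower (41% called, 19.2% higher and 21.8% lower). Medium and 8 h of culture cannot be told apart in these comparisons, and all 4 share the T0 libraries. Where a bulk level is lower, fewer expressing cells and less RNA per cell cannot be told apart either.

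HSPA1A, an inducible HSP70, had 165.8 and 169.9 CPM in the p53 KO DMSO medium, 146.4 and 152.6 CPM in the WT DMSO medium, and 45.65 and 49.05 CPM at T0. Every library in DMSO medium was thus far above both T0 libraries. HSPA1A rose by 1.83 ± 0.077 (log2, SE; adjusted p = 5.45e-12), a 3.54-fold higher level, in the p53 KO DMSO medium. In the WT DMSO medium it rose by 1.66 ± 0.077 (adjusted p = 1.47e-11). Its neighbour and near copy HSPA1B had 79.79 and 89.71 CPM in the p53 KO DMSO medium, 67.74 and 69.61 CPM in the WT DMSO medium, and 20.37 and 21.33 CPM at T0. HSPA1B rose by 2.02 ± 0.089 (adjusted p = 9.74e-12) in p53 KO DMSO medium and by 1.72 ± 0.089 (adjusted p = 5.21e-11) in WT DMSO medium. The same 2 genes stood closer to T0 in the etoposide media, where HSPA1A rose by 1.16 in p53 KO and 0.76 in WT medium, and HSPA1B by 1.49 and 1.32.

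BAG3, a nucleotide exchange factor that hands HSP70 clients to autophagy, had 248.1 and 266.1 CPM in the p53 KO etoposide medium and 130.3 and 120 CPM at T0. This was the largest BAG3 rise of the 4 media, 1.04 ± 0.08 (adjusted p = 6.27e-09), with 0.97 in the p53 KO DMSO, 0.76 in the WT etoposide and 0.81 in the WT DMSO medium. HSPH1, the HSP110 that acts as an exchange factor for HSP70, rose by 0.91 in the p53 KO etoposide, 0.95 in the p53 KO DMSO, 0.76 in the WT etoposide and 0.84 in the WT DMSO medium. HSP90AA1 had 1071 and 1118 CPM in the p53 KO DMSO medium and 671.4 and 667 CPM at T0, and rose by 0.71 ± 0.065 (adjusted p = 1.47e-07). Its rise in the other 3 media lay between 0.55 and 0.62. No library in any medium overlapped T0 for these 3 genes.

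HSPA8 had 2553 and 3016 CPM in the p53 KO DMSO medium and 1783 and 1768 CPM at T0, and rose by 0.65 ± 0.078 (adjusted p = 3.58e-06). The rise was 0.58 in the p53 KO etoposide, 0.26 in the WT etoposide and 0.38 in the WT DMSO medium. DNAJB1, an HSP40 that delivers clients to HSP70, rose by 0.48 in the p53 KO etoposide, 0.63 in the p53 KO DMSO and 0.36 in the WT DMSO medium. In the WT etoposide medium DNAJB1 had 200.2 and 215.7 CPM against 199.5 and 196.8 CPM at T0, a difference of 0.07 ± 0.076 that did not pass the test (adjusted p = 0.496).

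The small heat shock protein genes went their own way. HSPB8, which works with BAG3 in chaperone-assisted autophagy, had 84.1 and 66.99 CPM in the p53 KO DMSO medium, 76.1 and 81.95 CPM in the WT DMSO medium, and 142.9 and 152.1 CPM at T0. It fell by 0.97 ± 0.09 (adjusted p = 1.77e-07) in p53 KO DMSO medium and by 0.90 ± 0.09 (adjusted p = 3.47e-07) in WT DMSO medium, and the groups did not overlap. In the p53 KO etoposide medium its difference from T0 was −0.17 (adjusted p = 0.125), and in the WT etoposide medium it fell by 0.30 (adjusted p = 0.00976). HSPB1, an ATP-independent holdase, fell by 0.40 (adjusted p = 0.000626) in the p53 KO and 0.30 (adjusted p = 0.0066) in the WT etoposide medium. HSPB1 differed by 0.03 (adjusted p = 0.783) in the p53 KO and −0.02 (adjusted p = 0.897) in the WT DMSO medium.

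HSF1 itself had 354 and 370.3 CPM in the p53 KO etoposide medium, 357.1 and 368.2 CPM in the WT etoposide medium, 381.3 and 370.5 CPM in the WT DMSO medium, and 357.8 and 360.3 CPM at T0. In these 3 media its differences from T0 were 0.01, 0.01 and 0.07 on the log2 scale, with adjusted p of 0.913, 0.905 and 0.548. In the p53 KO DMSO medium HSF1 had 396.4 and 477 CPM and was called higher by 0.28 ± 0.079 (adjusted p = 0.00885). Without library B of that medium the difference was 0.14 (adjusted p = 0.147), and without T0 library A or B it was 0.28 or 0.29 (adjusted p = 0.0671 or 0.0611). The other 8 called members kept their calls in the p53 KO DMSO medium without its library A or B. HSPA1A then rose by 1.87 or 1.80, HSPA1B by 2.13 or 1.93, BAG3 by 1.09 or 0.86, HSPH1 by 1.01 or 0.90 and HSP90AA1 by 0.76 or 0.67. HSPA8 then rose by 0.79 or 0.52 and DNAJB1 by 0.75 or 0.52, and HSPB8 fell by 1.12 or 0.81. In the WT etoposide medium HSPA8 lost its call without T0 library A, T0 library B or library A of that medium (0.27, 0.25 and 0.26). HSPB1 lost it without T0 library A or library A of that medium (−0.28 and −0.26). HSPB8 lost it without T0 library B or library A of that medium (−0.26 and −0.28).

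**Figure D2:**
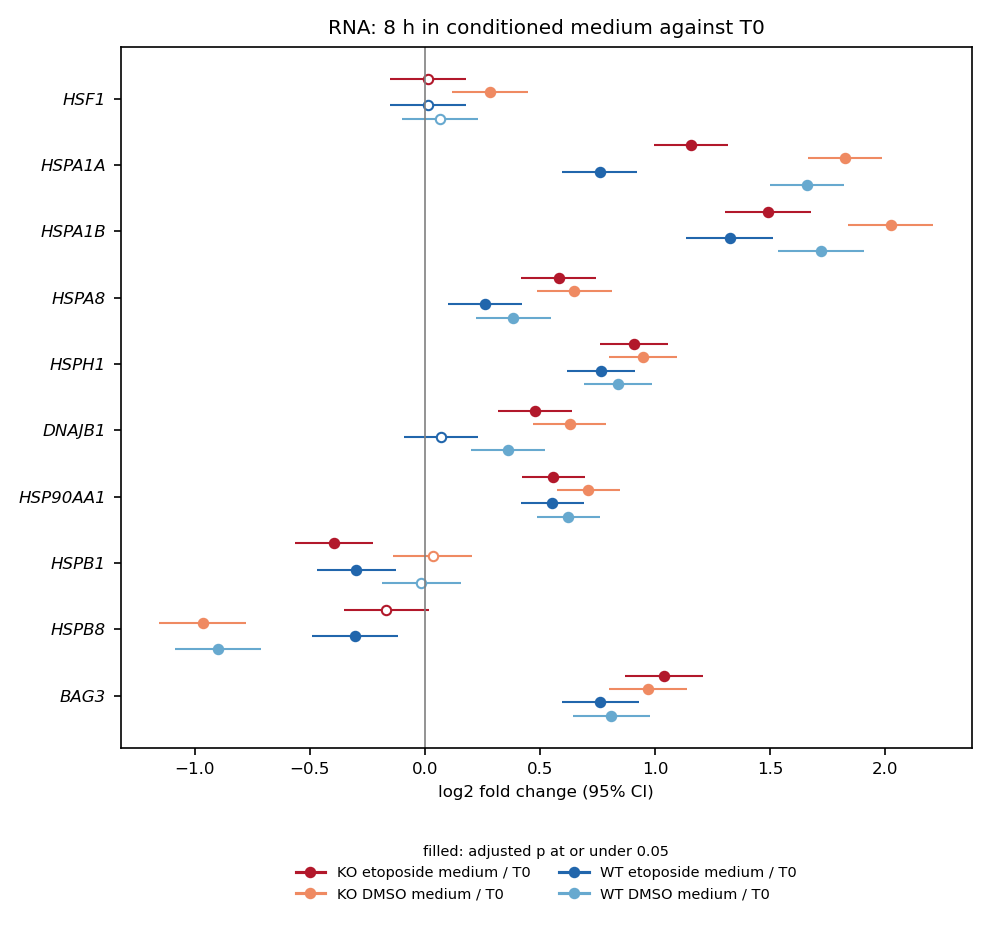
Log2 fold change of each gene (vertical axis) in the 4 conditioned media against T0 (horizontal axis), with 95% confidence intervals and filled points where the adjusted p is at or under 0.05. HSPA1A and HSPA1B lie between 0.76 and 2.02, farthest to the right in both DMSO media, and HSPB8 lies left of 0.

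Genes of the same pathways outside the 10 were read from 8 lists, which were chosen with earlier results of these data known. Of 15 HSP90 and co-chaperone genes, 10 were higher and 1 lower in the p53 KO DMSO medium against T0 (median log2 change 0.495), and 9 were higher and 1 lower in the WT DMSO medium (0.349). CHORDC1, an HSP90 co-chaperone, rose by 1.31 ± 0.076 (adjusted p = 3.12e-10) in p53 KO and 1.36 ± 0.076 (adjusted p = 1.61e-10) in WT DMSO medium. STIP1, which bridges HSP70 and HSP90, rose by 0.70 in p53 KO and 0.56 in WT DMSO medium. Among the 18 tested HSP70, HSP110 and HSP40 genes, 11 were higher in each DMSO medium, with 2 lower in the p53 KO and 1 lower in the WT medium, and DNAJA4, an HSP40, rose by 0.76 and 0.65. Of 10 mitochondrial chaperone and protease genes, 9 were higher in p53 KO and 6 in WT DMSO medium, and none was lower. Of 6 tested small heat shock protein genes, 4 were lower in each DMSO medium, with none higher in the p53 KO and 1 higher in the WT medium: HSPB7 fell by 1.95 ± 0.14 in p53 KO and 1.71 ± 0.13 in WT DMSO medium, and CRYAB by 0.72 and 0.58. Of 8 TRiC chaperonin genes, 6 were higher in p53 KO and 3 in WT DMSO medium, and none was lower. The other 3 lists were mixed. Of 16 genes of endoplasmic reticulum chaperones and the unfolded protein response, 3 were higher and 1 lower in the p53 KO medium, and 2 were higher and 5 lower in the WT medium. Of 12 nucleotide exchange and quality control genes, 5 were higher and 1 lower in the p53 KO medium, and 2 were higher and 3 lower in the WT medium. Of 8 HSF factors and regulators, 1 was higher and 2 were lower in the p53 KO medium, and 2 were higher and none lower in the WT medium. Over all tested genes the median was −0.0149 in p53 KO and 0.0049 in WT DMSO medium. Of these genes, 18.1% were higher and 18.7% lower in the p53 KO medium, and 17.8% and 17.6% in the WT medium. The rises were not limited to the DMSO media. Against T0, 12 of 15 HSP90 and co-chaperone genes were higher in p53 KO and 11 in WT etoposide medium, with none lower. Of the 18 HSP70, HSP110 and HSP40 genes, 13 and 12 were higher, with 1 lower in each. Of the 16 endoplasmic reticulum genes, 10 were higher and 3 lower in p53 KO, and 6 and 1 in WT etoposide medium. Of all tested genes, 22.8% and 19.2% were higher, and 23.8% and 21.8% lower.

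Medium from etoposide-treated donors was next compared with medium from donors of the same genotype without it. In both genotypes the recipients had less HSPA1A, HSPA1B and HSPB1 RNA and more HSPB8 RNA in the etoposide medium. HSP90AA1, HSPA8, HSPH1 and BAG3 passed edgeR's test in neither, while DESeq2 called HSP90AA1 lower with p53 KO donors (−0.15, adjusted p = 0.0479). With p53 KO donors 1 member was higher and 4 were lower, where 37.2% of all tested genes were called (18.8% higher, 18.4% lower). With WT donors 1 member was likewise higher and 4 lower, where 34.6% of all tested genes were called (16.1% higher, 18.5% lower).

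HSPA1A had 101.2 and 109.6 CPM in the p53 KO etoposide medium and 165.8 and 169.9 CPM in the p53 KO DMSO medium. It had 77.71 and 82.65 CPM in the WT etoposide medium and 146.4 and 152.6 CPM in the WT DMSO medium. Libraries of the 2 media did not overlap in either genotype. HSPA1A fell by 0.67 ± 0.073 (adjusted p = 7.13e-07), to 0.628 of the DMSO level, with p53 KO donors, and by 0.90 ± 0.074 (adjusted p = 2.13e-08), to 0.536 of it, with WT donors. HSPA1B had 56.83 and 60.43 CPM in the p53 KO etoposide medium against 79.79 and 89.71 CPM in the p53 KO DMSO medium, and fell by 0.53 ± 0.081 (adjusted p = 3.92e-05). With WT donors HSPA1B had 50.33 and 54.14 CPM in the etoposide medium against 67.74 and 69.61 CPM in the DMSO medium, and fell by 0.40 ± 0.082 (adjusted p = 0.000963).

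HSPA1A and HSPA1B encode near-identical transcripts, and how the authors' counting split shared reads is not given in the sources used here, so their separate values are uncertain. HSPA1A took 64 and 64.5% of the summed counts in the p53 KO etoposide medium, 67.5 and 65.4% in the p53 KO DMSO medium, 60.7 and 60.4% in the WT etoposide medium, 68.4 and 68.7% in the WT DMSO medium, and 69.1 and 69.7% at T0. The share was thus lowest in the WT etoposide medium. Summed, the 2 genes fell by 0.62 ± 0.072 (adjusted p = 1.64e-06) with p53 KO donors and by 0.72 ± 0.073 (adjusted p = 3.32e-07) with WT donors. HSPA8, HSP90AA1 and HSPB1 also have processed pseudogenes with which reads could be shared.

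HSPB8 had 127.9 and 134.6 CPM in the p53 KO etoposide medium against 84.1 and 66.99 CPM in the p53 KO DMSO medium, a rise of 0.80 ± 0.09 (adjusted p = 1.15e-06). With WT donors HSPB8 had 118 and 120.9 CPM in the etoposide medium against 76.1 and 81.95 CPM in the DMSO medium, a rise of 0.60 ± 0.09 (adjusted p = 4.09e-05). HSPB8 in the etoposide media thus lay above the DMSO media without overlap, on the side of the T0 level. HSPB1 had 1345 and 1449 CPM in the p53 KO etoposide medium against 2063 and 1699 CPM in the p53 KO DMSO medium, and fell by 0.43 ± 0.082 (adjusted p = 0.000384). With WT donors HSPB1 fell by 0.28 ± 0.082 (adjusted p = 0.0116), and its adjusted p was 0.0573, 0.0666 and 0.0978 without WT DMSO library A, WT DMSO library B and WT etoposide library A.

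DNAJB1 had 270.9 and 281.3 CPM in the p53 KO etoposide medium against 285.6 and 327.6 CPM in the p53 KO DMSO medium, a difference of −0.15 (adjusted p = 0.126). With WT donors it had 200.2 and 215.7 CPM in the etoposide medium against 259.3 and 249.7 CPM in the DMSO medium, and fell by 0.29 ± 0.076 (adjusted p = 0.00565). The DNAJB1 call with WT donors was lost without WT DMSO library A (adjusted p = 0.0592) or WT etoposide library A (adjusted p = 0.0765), and the count of called members was then 3. HSF1 fell by 0.27 ± 0.079 (adjusted p = 0.0112) with p53 KO donors, and its difference was −0.13 (adjusted p = 0.174) without p53 KO DMSO library B and −0.25 (adjusted p = 0.0878) without p53 KO etoposide library A. Without p53 KO DMSO library A or B, HSPA1A fell by 0.71 or 0.65, HSPA1B by 0.64 or 0.44 and HSPB1 by 0.31 or 0.56, and HSPB8 rose by 0.94 or 0.64, all 4 still called. Without p53 KO DMSO library A the differences were −0.27 for DNAJB1, −0.21 for HSP90AA1 and −0.21 for HSPA8. Without library B of that medium they were −0.05, −0.12 and 0.06. With WT donors HSF1 differed by −0.05 (adjusted p = 0.655; 95% interval −0.22 to 0.11).

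The difference between the etoposide effect of p53 KO media and that of WT media was tested as an interaction. It passed for none of the 10 members in edgeR's test, where 2.12% of all genes were called, and HSPA1A alone had an unadjusted p under 0.05 (0.23 ± 0.1, adjusted p = 0.237). Without p53 KO DMSO library A it passed for HSF1 (−0.37, adjusted p = 0.0091) and HSPB8 (0.35, adjusted p = 0.0314), and it passed for none without library B of that medium.

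**Figure D3:**
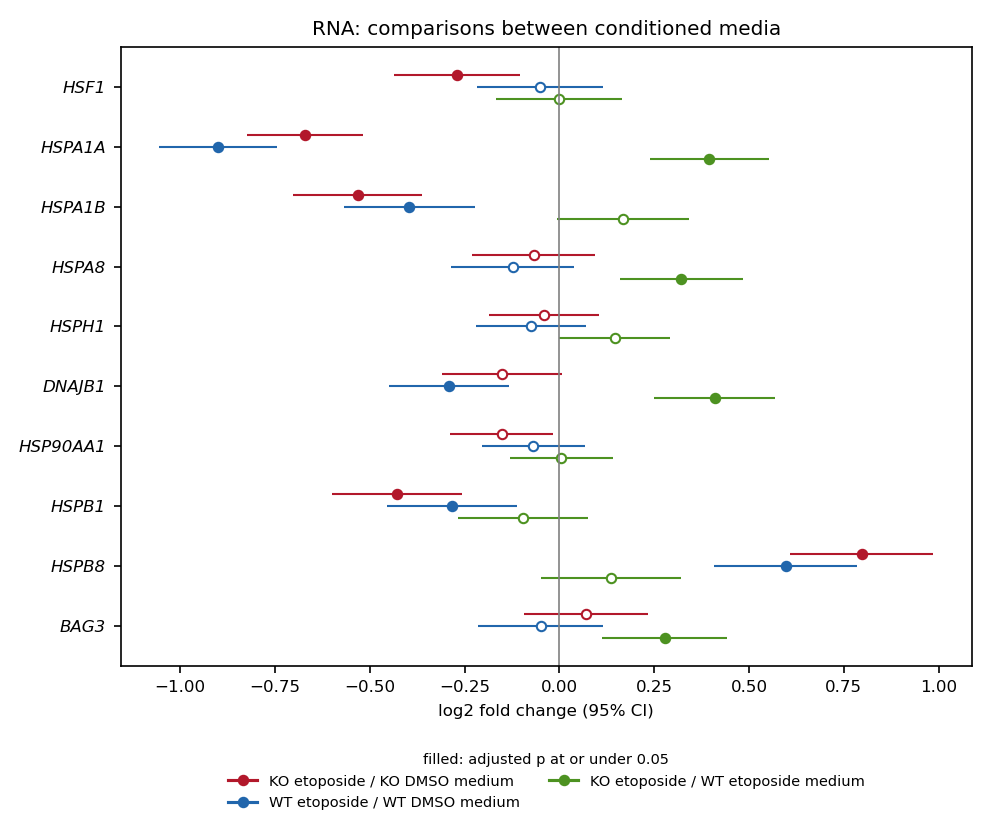
Log2 fold change with 95% confidence interval of each gene (vertical axis) for p53 KO etoposide against p53 KO DMSO medium, WT etoposide against WT DMSO medium, and p53 KO etoposide against WT etoposide medium, filled where the adjusted p is at or under 0.05. HSPA1A lies between −0.90 and −0.67 in the first 2 comparisons and at 0.40 in the third, and HSPB8 lies at 0.80 and 0.60 in the first 2.

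In the wider lists, CHORDC1 fell in the etoposide medium by 0.52 ± 0.074 (adjusted p = 1.75e-05) with p53 KO donors and by 0.48 ± 0.073 (adjusted p = 4.36e-05) with WT donors. Of its list of 15 HSP90 and co-chaperone genes, 2 were higher and 5 lower with p53 KO donors, and 2 were higher and 3 lower with WT donors. Of the 18 HSP70, HSP110 and HSP40 genes, 4 were higher and 4 lower with either genotype. Of all tested genes, 18.8% were higher and 18.4% lower with p53 KO donors, and 16.1% and 18.5% with WT donors. HSPA12A, a distant HSP70 relative, rose by 0.72 with p53 KO and 0.63 with WT donors. HSPA6, an inducible HSP70 gene that is near silent in most unstressed cells, averaged 3.52 CPM in p53 KO etoposide medium against 1.84 CPM in p53 KO DMSO medium, and rose by 0.93 ± 0.26 (adjusted p = 0.0083). With WT donors HSPA6 averaged 2.77 CPM in the etoposide against 0.94 CPM in the DMSO medium, and rose by 1.55 ± 0.31 (adjusted p = 0.000597). HSPA6 thus changed in the opposite direction to HSPA1A, at low counts and with a pseudogene close to it in sequence.

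Of 16 genes of endoplasmic reticulum chaperones and the unfolded protein response, 7 were higher and 2 lower with p53 KO donors (median 0.183), and 9 were higher and 1 lower with WT donors (median 0.178, against 0.0131 over all tested genes). Of all tested genes, 18.8% were higher with p53 KO and 16.1% with WT donors. DNAJB9, an HSP40 of the endoplasmic reticulum, rose by 0.84 with donors of either genotype. DNAJB11, another of them, rose by 0.52 with p53 KO and 0.65 with WT donors, and the stress factor ATF4 fell by 0.50 with p53 KO and 0.44 with WT donors. Of 8 tested genes of HSF factors and regulators, 2 were lower with p53 KO and 3 with WT donors, and none was higher, where 18.4% and 18.5% of all tested genes were lower. HDAC6, a deacetylase that senses ubiquitinated aggregates, fell by 0.48 with p53 KO and 0.30 with WT donors. The acetyltransferase CREBBP fell by 0.26 with p53 KO and 0.53 with WT donors. EP300, its relative, differed by 0.02 with p53 KO donors (adjusted p = 0.869) and fell by 0.53 with WT donors. None of the 8 genes of the TRiC chaperonin, which folds actin and tubulin, was called with either genotype.

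Recipients of p53 KO etoposide medium were then set against recipients of WT etoposide medium. They had more DNAJB1, HSPA1A, HSPA8 and BAG3 RNA. These 4 members were higher and none was lower, where 14.1% of all tested genes were called (8.5% higher, 5.57% lower). DNAJB1 had 270.9 and 281.3 CPM in p53 KO etoposide medium against 200.2 and 215.7 CPM in WT etoposide medium, a rise of 0.41 ± 0.076 (adjusted p = 0.00157). HSPA1A had 101.2 and 109.6 CPM against 77.71 and 82.65 CPM, a rise of 0.40 ± 0.075 (adjusted p = 0.00179). Neither gene's groups overlapped, and both kept their call whichever of the 4 libraries was left out.

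HSPA8 had 2586 and 2728 CPM in p53 KO etoposide medium against 2133 and 2120 CPM in WT etoposide medium, a rise of 0.32 ± 0.077 (adjusted p = 0.00992). BAG3 had 248.1 and 266.1 CPM against 205.4 and 218.9 CPM, a rise of 0.28 ± 0.079 (adjusted p = 0.0245). Both groups were apart, yet BAG3 lost its call in each of the 4 leave-outs (adjusted p of 0.0674 to 0.184), and HSPA8 lost it without WT etoposide library A or B or p53 KO etoposide library B (0.0615 to 0.0873), where 2 members were called. HSF1 differed by −0.002 (95% interval −0.17 to 0.16) and HSP90AA1 by 0.004 (−0.13 to 0.14). HSPH1, HSPA1B, HSPB8 and HSPB1 differed by 0.15, 0.17, 0.14 and −0.10. None of these differences passed, although the groups of HSPH1, HSPA1B, HSPB8 and HSPB1 did not overlap either. Groups of 2 libraries that lie apart are thus no evidence of a change by themselves, and the share of all genes with such groups is not given here. The authors' deposited table of this comparison gave 0.406 for DNAJB1, 0.392 for HSPA1A, 0.318 for HSPA8 and 0.274 for BAG3, with adjusted p of 4.8e-05, 0.000153, 0.00209 and 0.0188. Among the wider lists, HYOU1, an exchange factor of the endoplasmic reticulum, rose by 0.38 ± 0.068 (adjusted p = 0.0011). The HSP40 gene DNAJB5 rose by 0.39 ± 0.071 (adjusted p = 0.00135). Of the 16 endoplasmic reticulum genes 4 were higher and 1 lower. Of the 18 HSP70, HSP110 and HSP40 genes 2 were higher and none lower. In the other lists no gene was higher, and 1 HSF regulator and 1 gene of the HSP90 list were lower. Of all tested genes 8.5% were higher and 5.57% lower.

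Between the DMSO media, p53 KO against WT, edgeR called none of the 10 members, where 1.56% of all genes were called. An unadjusted p under 0.05 was found for 5 members, and the share of all genes at that cut is not given here. HSPA1B differed by 0.30 ± 0.08 (adjusted p = 0.0586), DNAJB1 by 0.27 (adjusted p = 0.0658), HSPA8 by 0.27 (adjusted p = 0.0735), HSF1 by 0.22 (adjusted p = 0.137) and HSPA1A by 0.17 (adjusted p = 0.205), all higher with p53 KO donors. DESeq2 called 3 of the 10, with 224 of 15391 genes higher and 126 lower. Without the filter on low counts edgeR called 4, with 721 of 22016 genes higher and 465 lower. Leaving out p53 KO DMSO library A or B gave HSPA1B 0.42 or 0.22, DNAJB1 0.40 or 0.17 and HSPA8 0.42 or 0.15. HSF1 then differed by 0.38 or 0.09, HSPA1A by 0.22 or 0.16 and BAG3 by 0.29 or 0.06. The comparison of etoposide media and this one share no library with each other, but each shares all its libraries with the comparisons of etoposide against DMSO medium.

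Over the 10 RNA libraries, the genes whose log2 CPM followed HSPA1A most closely among the 9532 genes averaging 10 CPM or more were STIP1 (Pearson r = 0.984), KCNQ5 (0.983), MED27 (0.982), CDK16 (0.98) and CDK8 (0.979). For HSPA8 they were NAT10 (0.988), TMEM51 (0.973), PPP1R9B (0.973), MAPKAPK3 (0.972) and FBXL19 (0.97). The 10 points are 5 pairs of libraries of a group, so these values mostly describe the order of the 5 groups.

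The screen asked what loss of each gene does to the growth of a cell under DMSO and under etoposide. A guide that cuts a gene needed for growth becomes rarer, and a guide that helps its cell becomes more frequent relative to the pool. Guide counts were summed per gene. HSPA8, whose product folds new proteins and uncoats clathrin, was the only member with a called change, and it moved in 4 of the 9 comparisons. Loss of HSF1, or of any other member, gave no called change in either genotype under the main scaling.

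HSPA8 guides summed to 68.07, 73.95 and 67.34 CPM in p53 KO cells under etoposide, 53.72, 51.73 and 55.29 CPM in p53 KO cells under DMSO, and 56.95, 54.93 and 54.41 CPM in p53 KO cells at T0. In p53 WT cells they summed to 55.72, 52.32 and 53.61 CPM under etoposide, 42.25, 42.42 and 45.14 CPM under DMSO, and 47.55, 49.73 and 52.5 CPM at T0. All 3 etoposide libraries lay above all 3 DMSO libraries in each genotype. In p53 KO cells the summed guides rose by 0.38 ± 0.051 under etoposide against DMSO (log2, SE; adjusted p = 9.36e-09; 4.23% of 19044 genes called, 3.05% higher). In p53 WT cells they rose by 0.32 ± 0.052 (adjusted p = 7.19e-06; 2.2% of genes called, 1.91% higher). The effects in the 2 genotypes differed by 0.07 (95% interval −0.08 to 0.21, adjusted p = 0.806; 0.0525% of genes called).

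**Figure D4:**
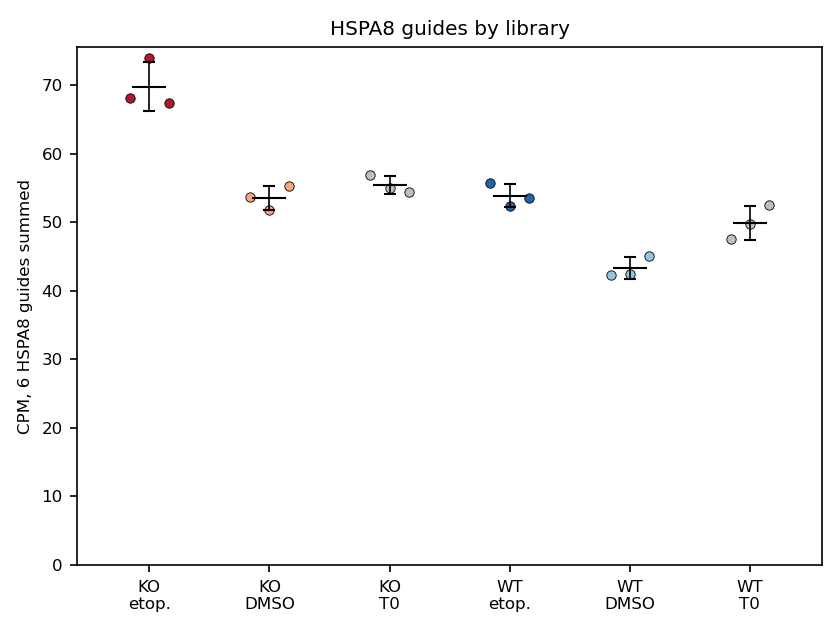
CPM of the 6 HSPA8 guides summed (vertical axis) in p53 KO and p53 WT cells under etoposide, under DMSO and at T0, with points for the 3 libraries of a group and bars for mean ± SD. Etoposide libraries lie at 67.34 to 73.95 in p53 KO and 52.32 to 55.72 in p53 WT cells, above the DMSO libraries of the same genotype.

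Against T0, HSPA8 guides in p53 KO cells under etoposide rose by 0.33 ± 0.05 (adjusted p = 4.3e-06; 1.12% of genes called, 0.378% higher). In p53 WT cells under etoposide they differed from T0 by 0.11 ± 0.051 (adjusted p = 0.538; 0.856% called), and the libraries overlapped. Under DMSO for 96 h, they differed from T0 by −0.05 ± 0.051 in p53 KO cells (adjusted p = 0.73; 3.51% called) and fell by 0.21 ± 0.052 in p53 WT cells (adjusted p = 0.00382; 6.54% called, 5.41% lower). The fall in p53 WT cells was −0.17 without T0 library C (adjusted p = 0.0783), and no member was then called. It rests on the same DMSO libraries as the rise under etoposide in p53 WT cells, so the 2 are not independent. The difference between the growth effects of the genotypes was 0.16 (adjusted p = 0.583; 0.00525% called).

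At T0, HSPA8 guides averaged 55.4 ± 1.3 CPM in p53 KO cells and 49.9 ± 2.5 CPM in p53 WT cells (SD, n = 3 each). The difference of 0.15 ± 0.051 was not called (adjusted p = 0.0713; 4.54% of genes called). It was called with the scale set by the non-targeting guides (0.19, adjusted p = 0.00948), by DESeq2 (adjusted p = 0.0341) and by limma on the mean over guides (adjusted p = 0.0487).

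Guide sequences were not used here. All 6 HSPA8 guides had a log2 change above 0 under etoposide against DMSO in both genotypes, with a mean log2 change over guides of 0.336 ± 0.197 in p53 KO and 0.379 ± 0.334 in p53 WT cells (SD over 6 guides of 1 gene, which are not replicates). In p53 KO cells HGLibA_22295 had 18.77, 18.57 and 16.96 CPM under etoposide against 11.31, 11.89 and 13.78 CPM under DMSO, a rise of 0.55 ± 0.1 (adjusted p = 0.000332). HGLibA_22296 had 16.75, 19.33 and 16.93 CPM under etoposide against 12.58, 13.17 and 14.39 CPM under DMSO, a rise of 0.40 ± 0.1 (adjusted p = 0.0257). These are the 2 member guides called in p53 KO cells, where 0.841% of all guides were called. In p53 WT cells the called guide was another one, HGLibB_22266, with 4.751, 4.237 and 4.83 CPM under etoposide against 1.946, 2.132 and 2.826 CPM under DMSO, a rise of 0.9985 ± 0.184 (adjusted p = 0.000842; 0.372% of guides called).

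In p53 KO cells HGLibB_22266 had 5.79, 5.759 and 4.419 CPM under etoposide against 5.076, 5.504 and 5.131 CPM under DMSO, a difference of 0.02. Its interaction of −0.97 ± 0.25 did not pass over all guides (adjusted p = 0.212; 0.00274% of guides called). The other 5 HSPA8 guides changed by 0.08 to 0.39 in p53 WT cells and, leaving out HGLibB_22266, by 0.20 to 0.55 in p53 KO cells. In p53 WT growth 4 of the 6 were below 0, and HGLibA_22295 fell by 0.38 ± 0.1 (adjusted p = 0.032; 1.54% of guides called), with 10.53, 9.899 and 11.06 CPM under DMSO against 13.06, 13.57 and 14.28 CPM at T0. In p53 KO growth 3 of the 6 were below 0 and none was called (0.609% of guides called).

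HSPH1 guides summed to 63.34, 60.33 and 61.89 CPM under etoposide against 55.91, 56.28 and 55.32 CPM under DMSO in p53 WT cells. The groups did not overlap, but the difference of 0.15 ± 0.051 was not called (adjusted p = 0.128); scaled to the non-targeting guides it was 0.18 (adjusted p = 0.0183). HSF1 guides summed to 32.21, 34.82 and 34.84 CPM under etoposide against 30.28, 32.05 and 29.73 CPM under DMSO in p53 WT cells, a difference of 0.15 ± 0.066 that was not called (adjusted p = 0.29). In p53 KO cells both were near 0, with HSPH1 at 0.02 (95% interval −0.08 to 0.12) and HSF1 at −0.02 (−0.15 to 0.11). The other 7 members changed under etoposide by −0.09 to 0.06 in p53 KO cells and by −0.07 to 0.07 in p53 WT cells. Guides may in part cut both HSPA1A and HSPA1B, which was not tested.

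**Figure D5:**
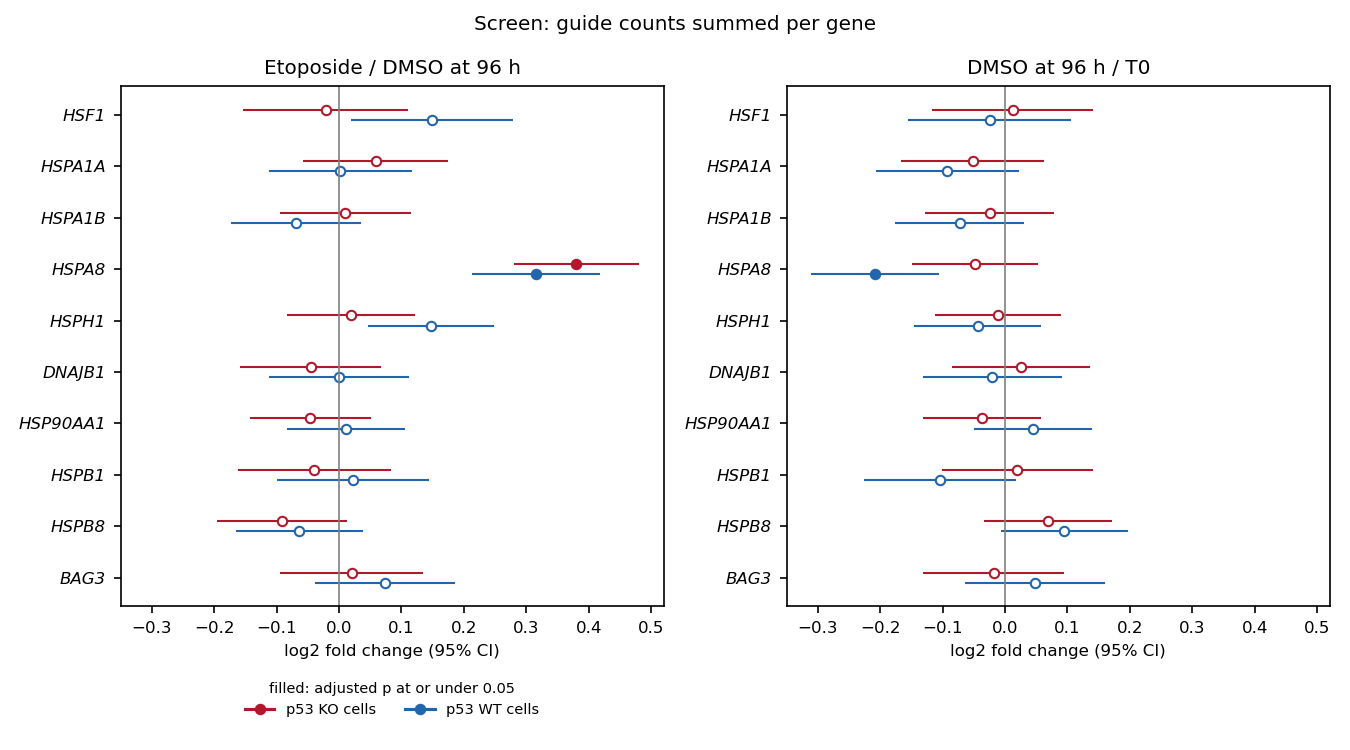
Log2 fold change with 95% confidence interval of the summed guide counts of each gene (vertical axis), etoposide against DMSO at 96 h on the left and DMSO at 96 h against T0 on the right, for p53 KO and p53 WT cells, filled where the adjusted p is at or under 0.05. HSPA8 stands apart from the other 9 genes on the left, at 0.38 and 0.32, and is the only filled gene on the right, at −0.21 in p53 WT cells.

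Besides the HSPA8 guides, 3 single guides were called. The HSPB1 guide HGLibB_22273 had 3.467, 2.57 and 3.647 CPM under DMSO against 4.819, 5.058 and 5.487 CPM at T0 in p53 WT cells, a fall of 0.66 (adjusted p = 0.0195). At T0 the HSPB8 guide HGLibA_22320 had 5.532, 5.885 and 7.073 CPM in p53 KO cells against 7.64, 7.977 and 10.12 CPM in p53 WT cells, a fall of 0.48 (adjusted p = 0.0372; 2.67% of guides called). The HSP90AA1 guide HGLibB_22220 had 5.143, 4.976 and 3.43 CPM in p53 KO cells against 7.26, 6.462 and 6.368 CPM in p53 WT cells at T0, a fall of 0.57 (adjusted p = 0.0422). No member guide was called under etoposide against T0 in p53 KO cells (0.0457% of all guides called) or p53 WT cells (0.101%), nor for the difference between growth effects (0.000914%). Of the 57, edgeR gave 7, 4 and 3 an unadjusted p under 0.05 in these comparisons, in that order. The share of all guides at that unadjusted cut is not given here, so no result is read from these counts. Each called guide named here was 1 of 6 of its gene, and the summed guides of these genes were not called in the same comparison.

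In the wider lists, guides of the mitochondrial chaperones and proteases had the most calls of the 8 lists in the comparisons of etoposide with DMSO and of DMSO with T0. Under etoposide against DMSO 5 of the 10 were higher in p53 KO and 4 in p53 WT cells (3.05% and 1.91% of all genes). Under DMSO against T0 4 were lower in p53 KO and 5 in p53 WT cells (588 and 1030 of all 19044 genes). Both comparisons use the same DMSO libraries, so these rises and falls are not independent. Under etoposide against T0 none of the 10 was higher in either genotype, and 1 was lower in p53 WT cells. HSPE1, the co-chaperonin of the mitochondrial HSP60, rose under etoposide by 0.31 ± 0.052 in p53 KO (adjusted p = 6.1e-06) and by 0.23 ± 0.052 in p53 WT cells (adjusted p = 0.00255). In growth HSPE1 fell by 0.46 in p53 KO and 0.57 in p53 WT cells. The protease LONP1 rose under etoposide by 0.51 in p53 KO and 0.25 in p53 WT cells. Guides of HSP90AB1, the constitutive HSP90, fell in growth by 0.32 in p53 KO and 0.33 in p53 WT cells, while HSP90AA1 differed by −0.04 in p53 KO (adjusted p = 0.791) and 0.04 in p53 WT cells (adjusted p = 0.683). Of 8 TRiC genes 3 were lower in growth in each genotype.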

How the data were processed

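RNA was measured in 10 libraries of 5 groups and guide DNA in 18 libraries of 6 groups, all U2OS. Per the file headers, the authors deposited raw counts per gene with the gene length, and raw counts per guide. A table of the authors gives a baseMean (a mean signal of normalized counts), a log2 fold change, a Wald score and p-values; it was used only where it is named. Per the submitters' processing notes, Bowtie2, DESeq2 and hg19 were used. The sources used here do not give how reads were counted, with which strand setting, or the name of the guide library.

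Counts were tested with edgeR 4.0.16 in R 4.3.3 (quasi-likelihood test, TMM, 1 mean per group, Benjamini-Hochberg over all features, threshold 0.05). RNA used filterByExpr, which kept 15391 genes and all 10 members, with 5 residual degrees of freedom. Screen counts were summed for the 19044 genes with at least 3 guides (12 residual degrees of freedom), and 109367 guides, 999 of them non-targeting, were tested singly. No column of the tables lacked a sample. CPM uses TMM-scaled totals, and per-kb levels divide by the deposited length. A ± after a log2 change is its standard error.

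Alternatives used DESeq2 1.42.0, limma 3.58.1, other scalings, no filter, a block for the replicate letter, and leaving out each library. A log2 change of 1, up or down, was put into 200 genes of simulated counts. The RNA test recovered 77.5% of them (WT etoposide against WT DMSO medium, 15391 genes) and the screen test 100% (p53 WT etoposide against DMSO, 19044 genes). All summed-guide changes of the members and most of their RNA changes were smaller than this. Recovery of such smaller changes was not simulated. Figures were drawn with matplotlib 3.10.9 in Python 3.11.15.

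The members and the 8 lists were chosen with earlier results of these data known. The 10 members are named in each comparison. From each list up to 4 called genes (2 in the screen) with the smallest p were eligible, and those named kept their call in every leave-out, except where values are given. Genes like HSPA1A and HSPA8 are the 5 with the highest Pearson r for each. HSPA6 was named by its low p. A check of the genotype labels in the screen is not reported here. Guides are named for HSPA8 and where a member's guide was called.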

Additional observations from a re-analysis of the deposited data

Results flagged for a closer look

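Among the genes of the 8 lists, 3 differences between genotypes passed the test of the difference itself. In RNA, the etoposide effect of p53 KO media minus that of WT media was 0.4365 ± 0.10 for DNAJB5 (log2, SE; adjusted p = 0.0329), and its adjusted p was 0.0722 to 0.192 without WT DMSO library A or B, WT etoposide library B, or p53 KO etoposide library A or B. For EP300 the same difference was 0.5501 ± 0.14 (adjusted p = 0.0457), with 0.108 to 0.305 without WT DMSO library A or B, WT etoposide library B or p53 KO etoposide library A. In the screen, the etoposide effect in p53 KO cells minus that in p53 WT cells was −0.354 ± 0.071 for guides of HSPA4 (adjusted p = 0.0104), an HSP110 gene, which fell by 0.21 in p53 KO cells (adjusted p = 0.00364) and differed by 0.14 in p53 WT cells. The HSPA4 difference was −0.328 by limma (adjusted p = 0.104), and its adjusted p was 0.0718 without p53 KO etoposide library A and 0.0712 without p53 WT etoposide library A. No cause of these differences was tested.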

How the results depend on the processing

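No called change reversed its direction under any alternative. For p53 KO against WT DMSO medium, where no member was called, DESeq2 called 3, edgeR without the low-count filter 4, and the replicate block 1 (HSPA1B). The cause was not tested. Of all genes, DESeq2 called 224 higher and 126 lower there, edgeR without the filter 721 and 465, and the block 185 and 204. DESeq2 also called 6 members, with HSP90AA1 added, against 5 for p53 KO etoposide against p53 KO DMSO medium. It called 2417 of 15391 genes higher and 2356 lower in that comparison. Scaled to the non-targeting guides, 2 members were called in p53 WT growth (HSPB1 added) and 2 under etoposide in p53 WT cells (HSPH1 added), against 1 each, and 1 at T0 (HSPA8) against 0, as by DESeq2 (1) and limma (1). That scaling moved the split of all genes to 17 higher and 1361 lower from 80 and 588 in p53 KO growth, to 20 and 2870 from 215 and 1030 in p53 WT growth, to 912 and 17 from 363 and 56 under etoposide in p53 WT cells, and to 1731 and 164 from 458 and 407 at T0. Member guides called over all comparisons were 7 in the main test, with DESeq2 size factors and with the block, and 9 scaled to the non-targeting guides; these guide alternatives were chosen after seeing the data.

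Leaving out 1 library at a time, called members numbered 4 to 8 for p53 KO etoposide against p53 KO DMSO medium, 3 to 5 for WT etoposide against WT DMSO, 2 to 3 for p53 KO against WT etoposide, 0 to 6 for p53 KO against WT DMSO, and 0 to 2 for the interaction. Against T0 they numbered 8 to 8 in p53 KO etoposide, 8 to 9 in p53 KO DMSO, 5 to 8 in WT etoposide and 8 to 8 in WT DMSO medium. In p53 WT growth they numbered 0 to 1, and in the other screen comparisons they did not move. A group left with 1 library is assumed to vary like the others. The share of all genes called in each leave-out is not given here. These ranges show only how far the members' calls depend on single libraries, and no result about the members is read from them.

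Deviations of libraries with the same letter correlated at −0.0369 to 0.0305 in RNA and −0.046 to 0.172 in the screen, with 0.104, 0.0626 and 0.172 for A, B and C in p53 KO growth. The letters were not taken to pair the libraries, and the replicate block changed no member's call but that of HSPA1B above. With 2 libraries a group and 5 residual degrees of freedom, small RNA changes could be missed.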
